A study of Mus musculus with 6 samples.

Results

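The chromatin around 8 genes of the leukemia inhibitory factor (LIF) and Stat3 pathway was examined in mouse embryonic stem cells (ESCs) and in the EPSCs derived from them, which were extended pluripotent stem cells (D-EPSCs) and expanded potential stem cells (L-EPSCs). The genes were Lif, Lifr, Il6st, Jak1, Stat3, Socs3, Pim1 and Pim3, chosen by name from 22367 protein-coding genes of the GENCODE M1 annotation of the mm9 assembly. Each was taken with 20 kb on either side, and 44 of the 65518 accessible regions of the series lay in these windows.

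The assay was ATAC-seq. The transposase Tn5 enters accessible DNA and tags the ends it cuts for sequencing, and a peak is a stretch where the tagged fragments pile up. The 6 libraries were 2 technical replicates of each of 3 states, and each state was given as 1 list of peak positions, with 28965 peaks for ESCs, 50225 for D-EPSCs and 46601 for L-EPSCs. The ESCs were the J1 line (129SV) grown in serum medium with LIF, the GSK3 inhibitor CHIR99021 and the MEK inhibitor PD0325901. D-EPSCs came from them by culture in N2B27 medium with serum replacement, LIF, CHIR99021, dimethindene maleate and minocycline. L-EPSCs came from the same ESCs in DMEM/F12 with serum replacement, LIF, CHIR99021, PD0325901, the Src family inhibitor A-419259, the tankyrase inhibitor XAV939, JNK inhibitor VIII and the p38 inhibitor SB203580. LIF (1000 units/mL) and CHIR99021 (3 µM) were thus common to all 3 states, and the ligand itself was not what was varied. The states differed in base medium, serum and several inhibitors at the same time, and the effects of these cannot be told apart. All cells came from 1 line, and the lists hold no expression values against which the identity of the cells could be checked.

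LIF is a cytokine of the interleukin-6 family that sustains the self-renewal of mouse ESCs. It binds the LIF receptor (Lifr), which pairs with gp130, the product of Il6st, and kinases of the JAK family bound to the receptors then phosphorylate Stat3. Phosphorylated Stat3 enters the nucleus and binds the DNA motif TTCNNNGAA, often as TTCCNGGAA, and among its direct targets are Socs3, which feeds back to shut the receptor down, and the kinases Pim1 and Pim3, which promote survival and self-renewal.

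The lists carry no height, score or value per replicate, so no test between states was possible. A region was made by merging peaks of the 3 lists that overlapped by at least 1 bp, and the comparisons below are of which lists held a peak, where it lay and how wide it was. The longer EPSC lists give more peaks around most genes, so the counts of genes and of regions by list are set beside the shares for all protein-coding genes or regions. The depth behind each list is unknown here, and a stretch without a peak may still be open. The comparisons of D-EPSCs and of L-EPSCs with ESCs share the same ESC list.

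The sequences below carry the STAT motif in or beside accessible regions of the 8 genes. They are from the mm9 reference, 5′ to 3′ on the strand of the gene, with each TTCNNNGAA in capitals. The cells are of the 129SV strain, whose own sequence was not read here. The Lifr run is shown because 3 motifs lay in it, and the Socs3, Stat3 and last Socs3 runs because they hold the tighter form TTCCNGGAA. The pair from the wide upstream region of Socs3 was chosen after the values were seen.
Lifr upstream, chr15:7065509-7065700, plus strand: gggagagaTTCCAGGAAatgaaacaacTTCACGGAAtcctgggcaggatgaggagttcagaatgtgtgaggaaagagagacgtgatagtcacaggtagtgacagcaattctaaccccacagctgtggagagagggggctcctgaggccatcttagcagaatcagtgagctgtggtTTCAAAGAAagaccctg
Socs3 start region, chr11:117830543-117830571, minus strand: ggccgggcagTTCCAGGAAtcggggggcg
Socs3 upstream, chr11:117837044-117837112, minus strand: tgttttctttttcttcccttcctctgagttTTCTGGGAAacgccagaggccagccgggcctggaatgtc
Socs3 upstream, chr11:117837509-117837577, minus strand: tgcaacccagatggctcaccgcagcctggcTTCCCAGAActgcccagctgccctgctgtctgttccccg
Stat3 upstream, chr11:100818777-100818805, minus strand: aggaactgccTTCCGGGAAgccttgtttt
Socs3 downstream, chr11:117823927-117823955, minus strand: gcttccgctcTTCCTGGAAagggaatttc

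Around the 8 genes, both EPSC lists held more peaks than the ESC list. The windows held 16 ESC peaks, 38 D-EPSC peaks and 33 L-EPSC peaks. The ratio of D-EPSC to ESC peaks was 2.38 here and 1.73 over all peaks. The ratio of L-EPSC to ESC peaks was 2.06 against 1.61 over all peaks. D-EPSCs exceeded L-EPSCs by a ratio of 1.15, against 1.08 over all peaks. The ratios to ESC depended on the window, being 1.83 for D-EPSC and 1.67 for L-EPSC within 10 kb of the genes, where the windows of all coding genes had 1.69 and 1.58, and 1.97 and 1.91 within 50 kb, against 1.73 and 1.61. ESC peaks covered 8530 bp of the windows, D-EPSC peaks 19811 bp and L-EPSC peaks 16646 bp.

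D-EPSC peaks outnumbered ESC peaks at 8 of the 8 genes, against 56.5% of all coding genes. L-EPSC peaks outnumbered ESC peaks at 6 of 8, against 52.5%, and Il6st and Jak1 had equal numbers. D-EPSC peaks outnumbered L-EPSC peaks at 6 of 8, against 31.1%, while Lif and Lifr had more L-EPSC peaks. Many coding genes have few regions or none. Among the 11838 coding genes with 3 to 8 regions, the range of the 8 members, the corresponding shares were 75.5%, 70.9% and 41.0%. When each list was limited to its 28965 widest peaks, the length of the ESC list, 7 of 8 genes had more D-EPSC than ESC peaks (27.5% of coding genes), 4 had more L-EPSC than ESC peaks (25.8%) and 4 had more D-EPSC than L-EPSC peaks (22.4%). The shares for this setting are over all coding genes, including those with few regions or none. Shares for genes with 3 to 8 regions were not computed for it. At that setting the order turned at Il6st, with 2 ESC peaks, 1 D-EPSC peak and 2 L-EPSC peaks, and at Lif, with 5 D-EPSC and 4 L-EPSC peaks. Jak1 then had fewer L-EPSC (1) than ESC peaks (2), L-EPSC and ESC numbers were equal at Il6st, Stat3 and Pim1, and D-EPSC and L-EPSC numbers were equal at Lifr, Socs3 and Pim3.

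**Figure D1:**
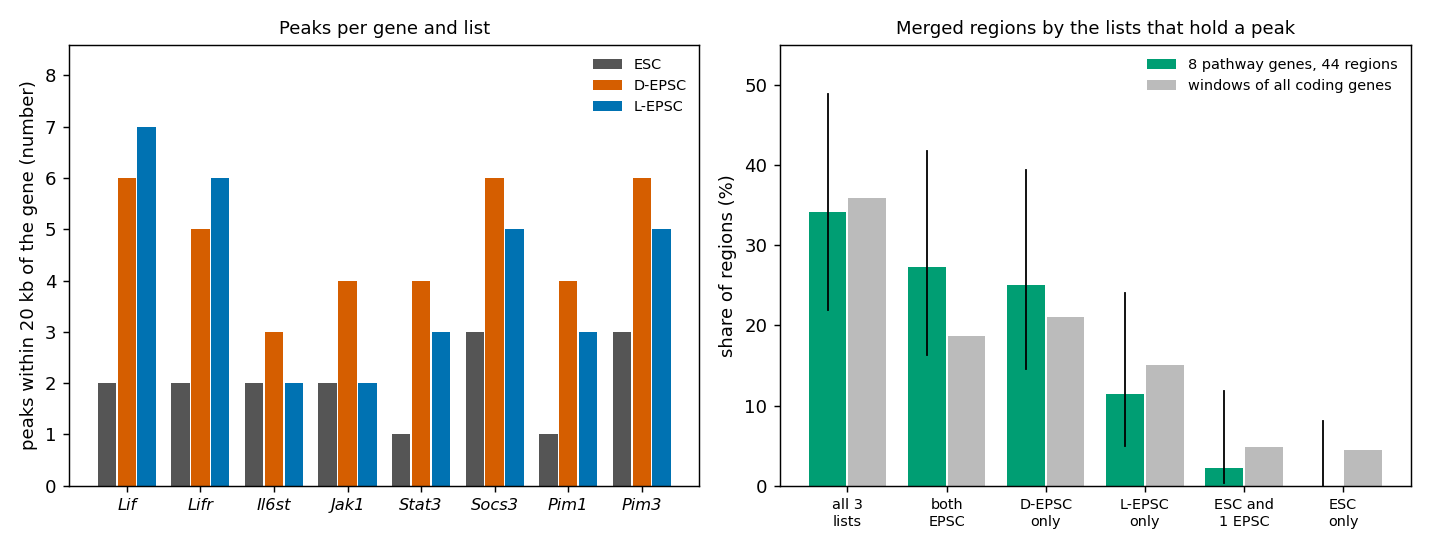
Left, the number of peaks (vertical axis) within 20 kb of each gene in the 3 lists, 1 bar per list. Right, the share (%) of the 44 regions around the 8 genes (green, lines are 95% Wilson intervals) and of the 52000 regions around all coding genes (grey) in each class. The D-EPSC bar stands above the ESC bar at 8 of 8 genes, and the grey bars lie within the green intervals in all 6 classes.

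Of the 44 regions, 15 had a peak in all 3 lists (34.1%, 95% Wilson interval 21.9 to 48.9%, against 35.9% of the 52000 regions in windows of coding genes). Both EPSC lists but not the ESC list held 12 regions (27.3%, 16.3 to 41.8%, against 18.7%). D-EPSCs alone held 11 (25.0%, 14.6 to 39.4%, against 21.1%) and L-EPSCs alone 5 (11.4%, 4.95 to 24.0%, against 15.1%). A single region, in an intron of Jak1, had a peak in ESCs and in only 1 EPSC list (2.27%, 0.402 to 11.8%, against 4.81%). None was found in ESCs alone, for which the Wilson interval reaches 8.03%, against 4.44%. In every class the share around coding genes lay within the interval of the 8 genes, and these intervals cover counting error only.

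Regions were then divided by position. A gene start is the 5′ end of any annotated transcript, and a region was at a start when it came within 1 kb of it. With GENCODE starts, 6 genes had an ESC start peak, 7 a D-EPSC one and 7 an L-EPSC one, against 52.3%, 64.2% and 61.5% of coding genes. With the starts of RefSeq, placed on mm9 by exact match of the RefSeq promoter sequences (GRCm38.p6), the count was 7 of 8 in each list, against 55.1%, 67.0% and 64.3% of 14791 matched genes. Lif and Il6st make the difference between the 2 annotations and are described with their genes. Counting both annotations, 12 of the 44 regions were at a start and 7 of these had peaks in all 3 lists. Of the 32 regions away from starts, 8 had peaks in all 3. When starts of any coding gene were counted, which adds the region at the start of Pgs1, 53.8% of 13 start regions and 25.8% of the 31 others had peaks in all 3 lists, against 65.9% and 21.6% of regions around all coding genes.

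Start regions were GC-rich and their peaks were wide. The median GC content of 400 bp around the middle of the region was 66.5% at starts (50.0 to 80.2%, 12 regions) and 53.8% away from them (36.8 to 70.2%, 32 regions), with 52.5% over all 65518 regions. The median ratio of observed to expected CpG dinucleotides was 0.760 at starts and 0.313 elsewhere, against 0.292 over all regions. ESC peaks at starts had a median width of 784 bp (7 peaks), D-EPSC peaks 620 bp (12) and L-EPSC peaks 712 bp (10). Away from starts the medians were 416 bp (9 peaks), 393 bp (26) and 351 bp (23). These medians are over different regions and do not rank the lists by width. The EPSC start peaks include narrow ones without an ESC peak, such as the Stat3 peaks of 353 bp (D-EPSC) and 163 bp (L-EPSC). In start regions with peaks in all 3 lists, ESC peaks were narrower than both EPSC peaks at Lifr, Il6st, Jak1, Socs3 and Pim1. At Stat3 and Pim3 they were not. With starts of any coding gene, start regions held 43.8% of ESC, 34.2% of D-EPSC and 33.3% of L-EPSC peaks in these windows, against 49.8%, 38.8% and 39.6% in the windows of all coding genes, so most peaks of each list around the 8 genes lay elsewhere.

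**Figure D2:**
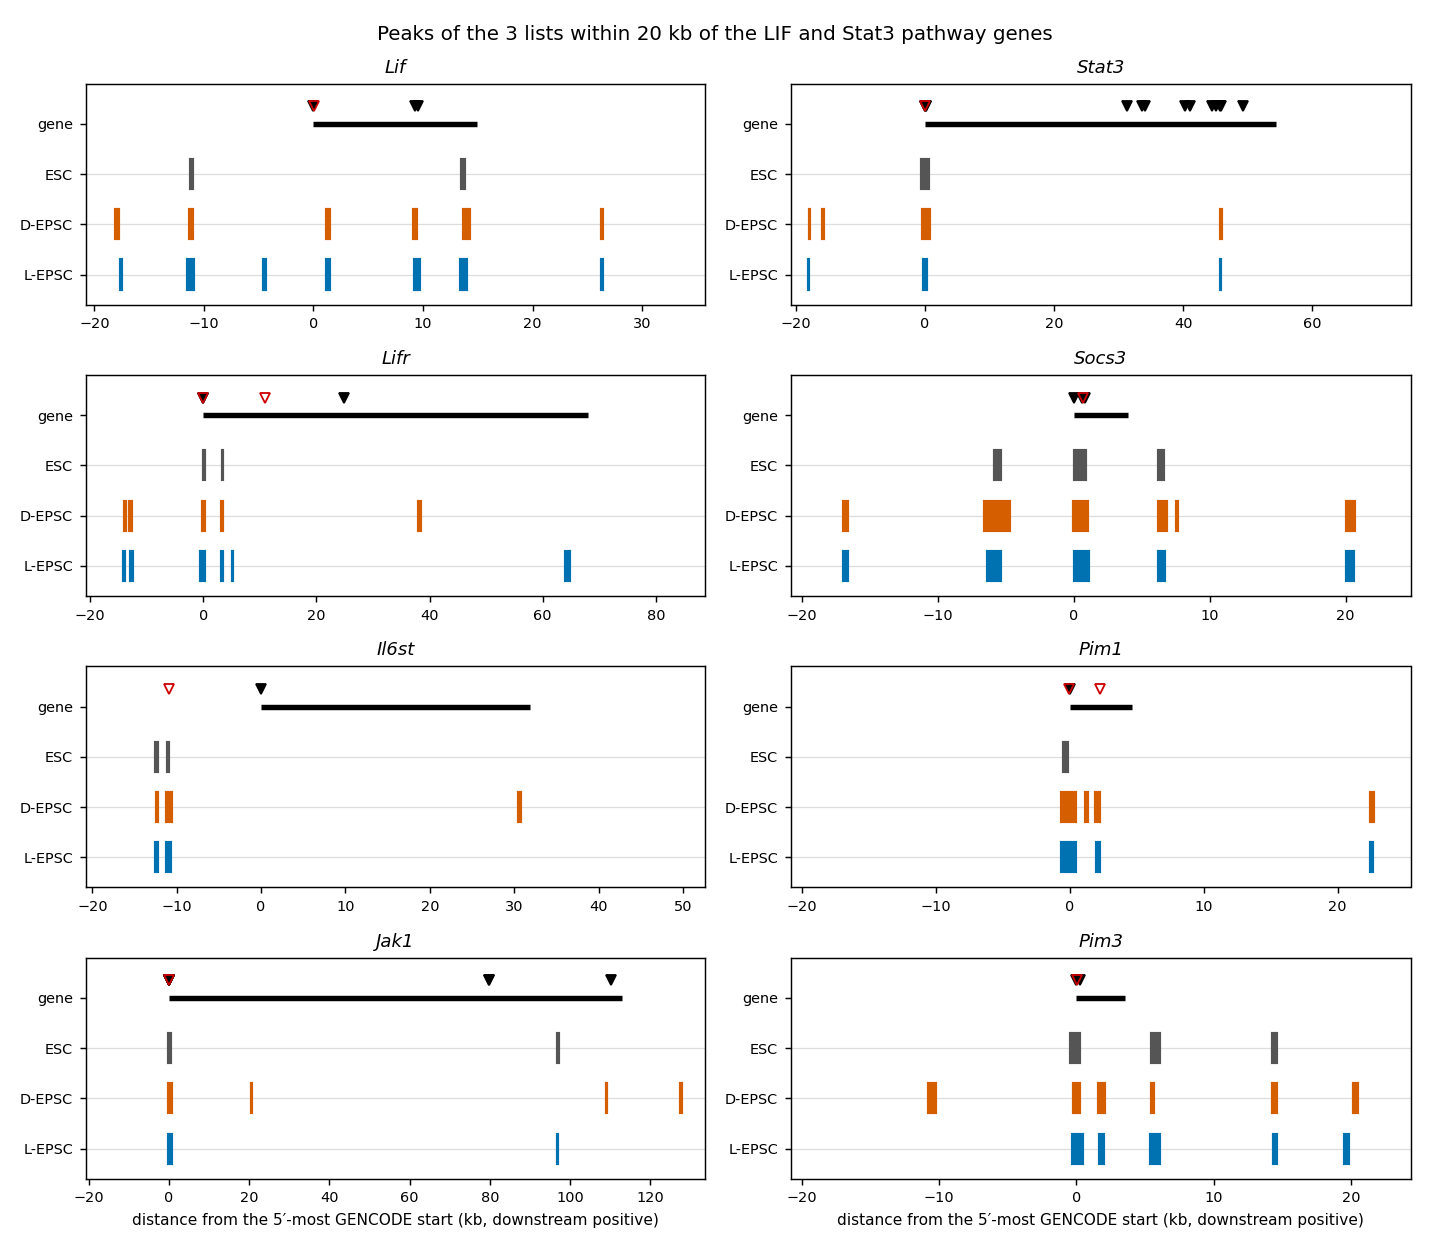
Peaks of the 3 lists around each gene, by distance in kb from its 5′-most GENCODE start (horizontal axis, in the direction of transcription). The black bar is the gene, filled triangles are GENCODE starts, open red triangles are RefSeq starts, and coloured boxes are peaks, outlined so that narrow ones can be seen. EPSC peaks without an ESC peak lie both upstream and downstream of Lif, Socs3 and Pim3, and of the regions shared by the 3 lists upstream of Il6st the one nearer to the gene lies at its RefSeq start.

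Lif, the ligand (chr11:4157560-4172517, plus strand), had 2 ESC, 6 D-EPSC and 7 L-EPSC peaks. The same 3 counts were found at 33 coding genes, Lif included. At least as many peaks were found at 52.3% of coding genes for ESCs, 16.1% for D-EPSCs and 8.56% for L-EPSCs. No list had a peak within 1 kb of the 5′-most start. The nearest peak was 10963 bp away in ESCs, 1099 bp (D-EPSC) and 1159 bp (L-EPSC). The EPSC peaks next to it formed a region in the first part of the gene (chr11:4158659-4159048), 390 bp wide in D-EPSCs and 308 bp wide in L-EPSCs. The start peaks of Lif belonged to internal starts further on (chr11:4166676-4167274, over an exon), where D-EPSCs had 375 bp, L-EPSCs 570 bp and ESCs no peak. The widest Lif region away from its starts was also exonic (chr11:4170896-4171824) and was found in all lists, with 348 bp in ESCs against 622 bp (D-EPSC) and 642 bp (L-EPSC). A shared region 11237 bp before the start had 327 bp in ESCs against 396 bp (D-EPSC) and 603 bp (L-EPSC). The remaining regions lacked an ESC peak, and those at 17924 bp and 17539 bp before the start lie within the neighbouring gene Osm, which encodes the related cytokine oncostatin M.

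Lifr, the ligand-binding receptor chain (chr15:7079559-7147489, plus strand), had 2 ESC, 5 D-EPSC and 6 L-EPSC peaks. Its start region was accessible in all 3 lists and had the highest GC content of the 44 regions, 80.2%. The ESC peak there was 254 bp wide and began 27 bp after the start. The D-EPSC peak was 689 bp wide and reached from 300 bp before to 388 bp after the start. The L-EPSC peak was 904 bp wide and reached from 542 bp before to 361 bp after. The L-EPSC to ESC width ratio of 3.56 was the highest of the 15 regions found in all lists. The EPSC peaks covered the start and the sequence on both sides of it, and the ESC peak lay on its downstream side.

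Upstream of Lifr, a pair of regions had D-EPSC and L-EPSC peaks and no ESC peak. The first (chr15:7065320-7065930), 13934 bp before the start, was 455 bp wide in D-EPSCs and 474 bp wide in L-EPSCs, and it holds the 3 STAT motifs printed above. The other (chr15:7066426-7067049), 12822 bp before the start, was the widest Lifr region of this class, with 620 bp (D-EPSC) and 479 bp (L-EPSC). The widest region away from the starts was found only in L-EPSCs, with a peak of 812 bp over an exon 64374 bp after the start.

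Il6st, which encodes gp130 (chr13:113265216-113297068, plus strand), had 2 ESC, 3 D-EPSC and 2 L-EPSC peaks, counts that 425 coding genes had. By GENCODE M1 it was the gene without a start peak in any list, the nearest being 10887 bp away in ESCs, 10596 bp (D-EPSC) and 10719 bp (L-EPSC). The RefSeq promoter of Il6st matched 10938 bp further upstream, at chr13:113254278, and peaks of all 3 lists covered that position. In that region (chr13:113253919-113254620) the ESC peak was 251 bp wide, the D-EPSC peak 702 bp and the L-EPSC peak 515 bp. The sequence just before the RefSeq start, printed because the reading of this gene turns on it and chosen after the values were seen, held 20 CpG dinucleotides, in capitals, in 150 bases.
Il6st promoter, chr13:113254128-113254277, plus strand: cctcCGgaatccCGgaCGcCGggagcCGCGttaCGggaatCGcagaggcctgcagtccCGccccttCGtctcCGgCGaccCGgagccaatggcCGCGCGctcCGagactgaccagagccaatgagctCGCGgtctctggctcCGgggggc

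The GC content around the middle of this region was 71.8% and the observed to expected CpG ratio 0.956, in the range of the other start regions. The neighbouring shared region (chr13:113252586-113253041) was wider in ESCs (456 bp) than in D-EPSCs (268 bp) or L-EPSCs (307 bp). The remaining region, over an exon 30630 bp after the GENCODE start, had a D-EPSC peak of 257 bp and no other, and no region was shared by the EPSC lists and missing from the ESC list.

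Jak1, a receptor-associated tyrosine kinase (chr4:100824972-100937887, minus strand), had 2 ESC, 4 D-EPSC and 2 L-EPSC peaks. Its start region (chr4:100937106-100938173) was wide in every list, with 831 bp in ESCs against 1019 bp (D-EPSC) and 900 bp (L-EPSC). Beyond it the lists diverged. An intronic region 96945 bp after the start had a peak of 416 bp in ESCs and of 131 bp in L-EPSCs and none in D-EPSCs. D-EPSCs alone had 3 further peaks, of 254 bp in an intron, of 411 bp near an internal start of a transcript not annotated as coding, and of 447 bp within the neighbouring gene Raver2. Like Il6st, Jak1 had no region shared by the EPSC lists and missing from the ESC list.

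Stat3, the transcription factor (chr11:100746412-100800854, minus strand), had 1 ESC, 4 D-EPSC and 3 L-EPSC peaks. The single ESC peak, at the start, was the widest ESC peak in the 8 windows, with 1289 bp. The D-EPSC peak there was 1229 bp and the L-EPSC peak 653 bp, so this start was narrower in L-EPSCs than in the other states. Both EPSC lists had a peak 45816 bp into the gene, at internal starts of transcripts not annotated as coding, of 353 bp (D-EPSC) and 163 bp (L-EPSC). They also shared a region 17985 bp before the start (chr11:100818680-100818998), of 146 bp (D-EPSC) and 229 bp (L-EPSC), within the gene Ptrf. This region holds the TTCCGGGAA printed above, inside the peaks of both EPSC lists, in an exon of Ptrf. The region closer to the start, 15771 bp before it, was found in D-EPSCs only (254 bp). The window of Stat3 overlaps that of Stat5a, so the genes share some of their peaks.

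Socs3, the feedback inhibitor and a direct Stat3 target (chr11:117827393-117831361, minus strand), had 3 ESC, 6 D-EPSC and 5 L-EPSC peaks. Per 100 kb of window this was 6.82 ESC, 13.6 D-EPSC and 11.4 L-EPSC peaks. Its start region (chr11:117830263-117831443) was broad in all lists, with 939 bp in ESCs against 1133 bp (D-EPSC) and 1112 bp (L-EPSC). It contains TTCCAGGAA 57 bp before the start of the coding GENCODE transcript, inside the peaks of all 3 lists, and TTCTTAGAA 65 bp before the next annotated start. The RefSeq start lies upstream of the first of these, so by RefSeq that motif is within the transcribed part. GENCODE starts of transcripts not annotated as coding also lie upstream of that motif. The 5′-most of these starts lies upstream of TTCTTAGAA as well.

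The widest peak in any of the 8 windows lay upstream of Socs3 (chr11:117836018-117837961, centred 5628 bp before the 5′-most start). It was 555 bp wide in ESCs, 1944 bp (D-EPSC) and 1041 bp (L-EPSC), a D-EPSC to ESC ratio of 3.50. The motif TTCTGGGAA was inside the peaks of all 3 lists, while TTCCCAGAA, in the outer part, was inside the D-EPSC and L-EPSC peaks and outside the ESC peak. A shared downstream region had 488 bp in ESCs against 654 bp (D-EPSC) and 509 bp (L-EPSC). The widest region of the EPSC lists alone (chr11:117810709-117811354) lay 20330 bp after the start, with 634 bp (D-EPSC) and 588 bp (L-EPSC). A region at 16798 bp before the start, also in both EPSC lists, was at the start of another gene, Pgs1. A narrow D-EPSC peak of 137 bp lay downstream, and the TTCCTGGAA printed last above was 120 bp outside it.

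Pim1, a serine/threonine kinase gene induced by Stat3 (chr17:29627757-29632390, plus strand), had 1 ESC, 4 D-EPSC and 3 L-EPSC peaks, the same counts as Stat3. The ESC peak was 381 bp wide and ended 121 bp before the start. The D-EPSC peak, of 1169 bp, and the L-EPSC peak, of 1170 bp, ran from 656 bp and 670 bp before the start to 512 bp and 499 bp after it. The ESC peak thus lay wholly upstream, while the EPSC peaks covered the start. Both EPSC lists had a further peak inside the gene (chr17:29629651-29629998), of 347 bp (D-EPSC) and 243 bp (L-EPSC), close to an internal RefSeq start. The widest EPSC region away from GENCODE starts was that one, and a more distant one, 22542 bp after the start, had 270 bp (D-EPSC) and 185 bp (L-EPSC). D-EPSCs alone had a peak of 204 bp in the gene.

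Pim3, a kinase of the same family (chr15:88692616-88696150, plus strand), had 3 ESC, 6 D-EPSC and 5 L-EPSC peaks, the counts of Socs3, and 13.8 D-EPSC peaks per 100 kb. Its start peak did not follow that of Pim1. The widths were 784 bp in ESCs against 552 bp (D-EPSC) and 771 bp (L-EPSC), and each peak covered the start. A shared downstream region (chr15:88697943-88698715) was likewise narrowest in D-EPSCs, with 656 bp in ESCs against 243 bp (D-EPSC) and 742 bp (L-EPSC). The D-EPSC to ESC ratio of 0.370 here was the lowest of the 15 shared regions. Its motif TTCTGAGAA was inside the peaks of all 3 lists. Both EPSC lists shared a region inside the gene (chr15:88694196-88694666), of 471 bp (D-EPSC) and 351 bp (L-EPSC). D-EPSCs alone had a peak of 624 bp 10514 bp before the start.

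**Figure D3:**
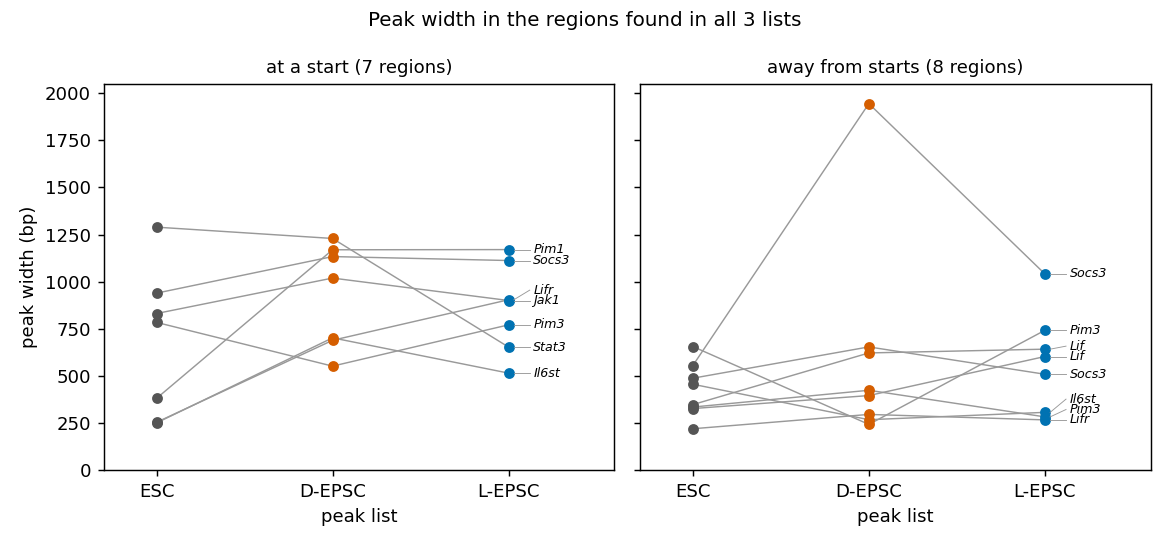
Peak width (bp) in each list for the 15 regions found in all 3 lists, at a GENCODE or RefSeq start (left) and away from starts (right). Each line joins the widths of 1 region, labelled by gene, and the order of the lists carries no meaning. The ESC width is below both EPSC widths at the starts of Lifr, Il6st, Jak1, Socs3 and Pim1, but not at those of Stat3 and Pim3.

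Over the 15 shared regions, the D-EPSC peak was wider than the ESC peak in 11 (73.3%, interval 48.0 to 89.1%), against 72.1% of all 21752 regions shared by the lists. The L-EPSC peak was wider than the ESC peak in 11, against 70.2%. The D-EPSC peak was wider than the L-EPSC peak in 8 (53.3%, 30.1 to 75.2%), against 54.1%. The median width ratios were 1.27 for D-EPSC to ESC, 1.18 for L-EPSC to ESC and 1.02 for D-EPSC to L-EPSC, where all shared regions had 1.26, 1.22 and 1.03. These shares and ratios lay close to those of shared regions as a whole, while single regions ranged from 0.370 to 3.50 in the D-EPSC to ESC ratio.

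The motif TTCNNNGAA, which reads the same on both strands, occurred in the 400 bp around the middle of 6 of the 44 regions (13.6%, 6.40 to 26.7%), against 10.0% of all regions. TTCCNGGAA, a subset of it, occurred in 3 (6.82%, 2.35 to 18.2%), against 1.51%. The letters of the first motif in reverse, AAGNNNCTT, which have the same composition, occurred in 5 (11.4%), against 11.5%. Over the whole span of the regions there were 11 matches of TTCNNNGAA in 7 regions (15.9%, against 11.3%), which were spread over Lif, Lifr, Jak1, Stat3, Socs3 and Pim3. Il6st and Pim1 had no match, which says only that these letters are not in their regions. For comparison, the Esrrb motif TCAAGGTCA occurred in 0 of 44 (interval to 8.03%) against 1.47%, the octamer ATGCAAAT in 1 against 2.85% and the AP-1 motif TGANTCA in 1 (2.27%) against 10.8%, each on either strand. Of the 6 motifs searched, TTCCNGGAA was the one whose share over all regions fell outside the interval of the 8 genes. That share rests on 3 regions, upstream of Lifr, upstream of Stat3 and downstream of Socs3, and in the last the motif was outside the peak. The TTCCAGGAA of the Socs3 start region is not among them, as it lay outside the 400 bp counted. A match is not evidence of binding.

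Another 37 genes of the pathway were described in the same way: other ligands and receptors of the family, other JAK kinases and STAT factors, regulators, adaptors and Stat3 targets. Their windows held 107 distinct ESC peaks, 185 D-EPSC peaks and 179 L-EPSC peaks, of which 1, 4 and 5 also lay in windows of the 8 genes. A start peak was present at 26 of 37 genes for ESCs, at 32 for D-EPSCs and at 33 for L-EPSCs, where coding genes as a whole had 52.3%, 64.2% and 61.5%. D-EPSC peaks outnumbered ESC peaks at 32 (56.5% of coding genes, 75.5% of those with 3 to 8 regions) and were fewer at 1, Bcl6, a transcriptional repressor (3 ESC, 2 D-EPSC and 3 L-EPSC peaks). L-EPSC peaks outnumbered ESC peaks at 31 (52.5% and 70.9%) and were fewer at 1, Stat5b (6 ESC, 7 D-EPSC and 5 L-EPSC peaks). More D-EPSC than L-EPSC peaks were found at 13 (31.1% and 41.0%) and fewer at 14. With the widest peaks of each list, 19 had more D-EPSC than ESC peaks (27.5% of coding genes), 15 more L-EPSC than ESC peaks (25.8%) and 18 more D-EPSC than L-EPSC peaks (22.4%). For this setting, too, no share was computed for genes with 3 to 8 regions.

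By role the groups were small, and differences between them were not tested. Of the 6 ligands besides Lif, 0 had a start peak in ESCs, 3 had one in D-EPSCs and 4 in L-EPSCs. Of these, Cntf, ciliary neurotrophic factor, had no peak in its window in any list. Il6, the cytokine that gives the family its name, had none in ESCs or D-EPSCs and 1 in L-EPSCs, 16 bp from its start. Of the 4 receptors, 2 had a start peak in ESCs and 4 in each EPSC list. Osmr, the oncostatin M receptor, had no ESC peak in its window and 1 peak in each EPSC list, at its start. The 4 STAT factors and the 7 regulators, which include Socs1, Socs2 and the phosphatases Ptpn6 and Ptpn11, had a start peak in all 3 lists. Among the 11 targets, which include Klf4, Klf5 and Myc, 9 had an ESC start peak and 10 had one in each EPSC list.

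The largest differences between D-EPSC and ESC peaks were at the receptor genes Il11ra1 (6 ESC, 13 D-EPSC and 8 L-EPSC peaks) and Cntfr (3, 10 and 6, in the same order), which also had the largest differences between the EPSC lists. They are neighbours with overlapping windows, so some of these peaks are counted for both. Between L-EPSCs and ESCs the largest difference, 5 peaks, was shared by the transcription factor gene Stat6 (4 ESC, 7 D-EPSC and 9 L-EPSC peaks), the adaptor gene Gab1 (3, 7 and 8) and Bcl3, an NF-κB regulator gene (5, 9 and 10).

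**Figure D4:**
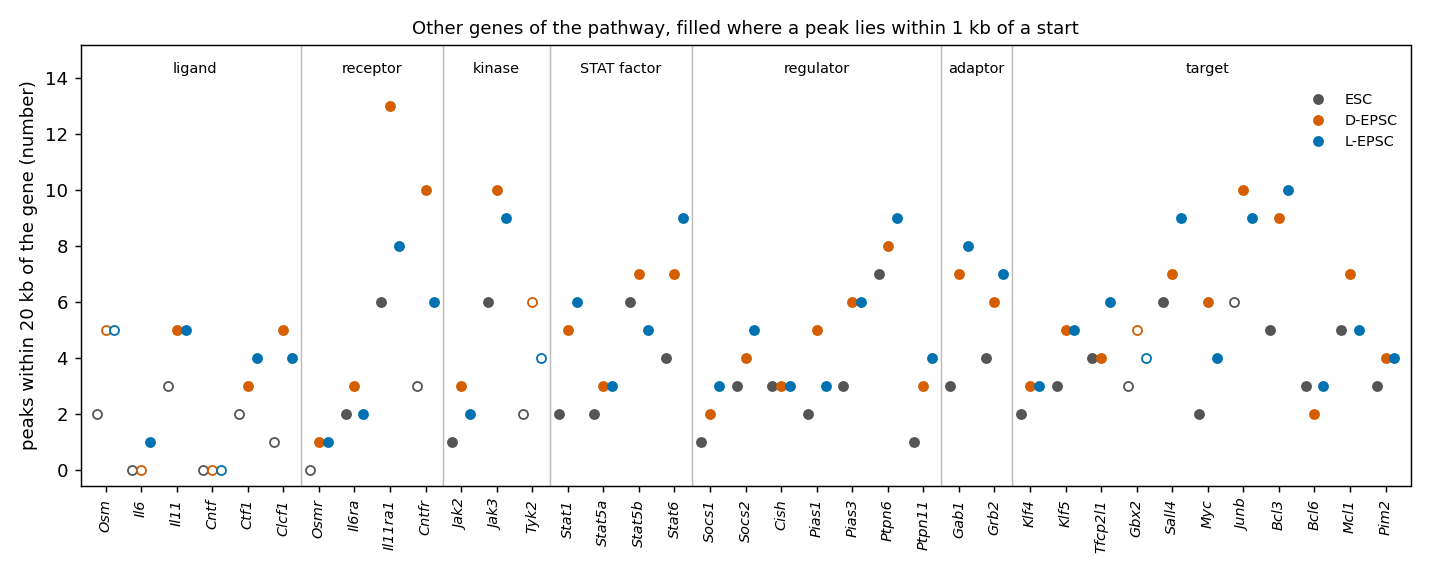
Number of peaks (vertical axis) within 20 kb of each of the 37 other pathway genes in the 3 lists, grouped by role. A filled point means that the list has a peak within 1 kb of a start of the gene. The ESC points of all 6 ligands are open, and Il11ra1 has the highest D-EPSC point, at 13, followed by Cntfr, Jak3 and Junb at 10.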

How the data were processed

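ATAC-seq libraries of 6 samples, 2 technical replicates for each of 3 states, were made by the authors from cells treated with Tn5. Per the study's methods and processing notes, the authors trimmed reads (Trim Galore 0.6.3), aligned them to mm9 (Bowtie2 2.3.5), kept properly paired reads above a mapping quality limit (SAMtools 1.10) and called peaks with MACS at default settings. The deposited values are peak starts and ends, with no score or count, in 1 list per state; how replicates were combined, and whether cut positions were shifted or duplicates removed, is not given in the sources used here. Missing shifts would move edges by a few bases, and depth or duplicates would change how many weak peaks pass.

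Only peaks of the autosomes (1 to 19) and of X or Y entered, with the NCBIM37 (mm9) genome and GENCODE M1. Windows, starts, classes and motifs are defined in the text. Scripts used Python 3.11.15, numpy 2.4.6 and scipy 1.17.1, and overlaps were checked against bedtools 2.31.1 and motif search on simulated data. Medians, ratios and Wilson intervals (95%, counting error only) are descriptions. RefSeq promoters (250 bp before to 50 bp after a start) were placed by exact match within 100 kb of the gene.

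The members and gene lists were chosen with earlier results of these data known. All 8 members were named, with their start regions, the widest region away from starts, the widest region of the EPSC lists alone, any ESC-only region and any with TTCCNGGAA. Of the 37 other pathway genes, those without any peak and the 2 with the largest difference for each pair of lists were named, ties included, and Il6, Osmr, Bcl6 and Stat5b were named after their values were seen. Alternatives were windows of 10 and 50 kb, start distances of 500 bp and 2.5 kb, 50% reciprocal overlap, the widest 28965 peaks of each list, peaks of at least 128 bp, nearest-start assignment, coding transcripts only and the motif variants. RefSeq starts, the background of genes with 3 to 8 regions, widest peaks for the gene counts, starts of any coding gene, the ratios by window and the Esrrb, octamer and AP-1 motifs were added after seeing the data.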

Additional observations from a re-analysis of the deposited data

How the results depend on the processing

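No paired analysis was possible because each state has a single peak list, and leaving out a replicate was not possible for the same reason. Of 84 alternatives, 63 left a count within 1.5 times its value, or a median or share within its 95% interval, and 21 moved it further. The 63 include the limit of 128 bp on peak width, which could change nothing here because the narrowest peak was 131 bp. They also include the reversed letters AAGNNNCTT, which are a comparison and not a form of the STAT motif. Windows of 50 kb held 34 ESC, 67 D-EPSC and 65 L-EPSC peaks, and windows of 10 kb held 12 ESC, 22 D-EPSC and 20 L-EPSC peaks, with a median L-EPSC width of 606 bp. At 50 kb, 32 regions had peaks in all 3 lists, 19 in both EPSC lists only, 10 L-EPSC only and 1 ESC only. At 10 kb, 5 regions were in both EPSC lists only, 6 in D-EPSCs only and 3 in L-EPSCs only, so the order of the first pair of classes turned. The D-EPSC to ESC ratio of 2.38 at 20 kb was 1.83 at 10 kb and 1.97 at 50 kb, and the L-EPSC to ESC ratio of 2.06 was 1.67 and 1.91. With 50% reciprocal overlap, which splits loosely overlapping peaks, 8 regions were L-EPSC only and 5 ESC only, so the absence of ESC-only regions did not hold there. With the widest peaks of each list, 7 regions were in both EPSC lists only, 8 in D-EPSCs only, 2 in L-EPSCs only, 2 in ESCs and 1 EPSC list and 2 in ESCs only. At that setting 19 of the 37 other pathway genes had more D-EPSC than ESC peaks and 15 more L-EPSC than ESC peaks, and the order of the lists turned at Il6st (D-EPSC against ESC and L-EPSC) and Lif (D-EPSC against L-EPSC). Differences in depth between the lists were not tested, since no depth is given here.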
